A study of Mus musculus with 6 samples.

Results

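Trp53 and 9 genes that its product p53 is known to activate were followed in primary stromal cells of the mouse prostate, with and without a stabilised form of β-catenin. The 10 genes (Trp53, Mdm2, Ccng1, Bax, Bbc3, Pmaip1, Zmat3, Phlda3, Eda2r and Sesn1) were chosen by name out of 24346 gene symbols, and all 10 were measured. Both groups were stromal cells grown from prostates of 8 to 12 week old C57BL/6 mice on collagen-coated plates, in medium with serum, insulin and 1e-10 M of the androgen DHT. In both, only cells that attached within 30 min of replating were kept, and cells were used within 3 weeks of dissociation. The control cells carried the lentiviral vector FU-CGW, and the other cells the same vector with a complementary DNA for S37A β-catenin, a form that escapes the phosphorylation that marks β-catenin for breakdown. There were 3 libraries of each group. The share of infected cells, and whether libraries of a group came from separate animals or cultures, are not given in the sources used here. The p-values therefore measure the spread between these libraries, which may be technical.

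p53 is a transcription factor that cells accumulate after DNA damage and other stresses, and its target genes stop division, remove metabolic and oxidative stress or start cell death. Mdm2 encodes the ubiquitin ligase that marks p53 for breakdown, and because p53 activates Mdm2 the pair forms a negative feedback loop. Control of p53 is exerted largely on the protein, so the RNA of Trp53 and the RNAs of its targets need not move together. Bax, Bbc3 (PUMA) and Pmaip1 (NOXA) belong to the BCL2 family and promote release of cytochrome c from mitochondria. Ccng1, Zmat3, Phlda3, Sesn1 and Eda2r are linked to growth, RNA stability, AKT signalling, TORC1 signalling and death receptor signalling.

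p53 binds DNA as a tetramer at paired copies of a 10-base pattern, the p53 half-site. Matches to this pattern near the start of these genes are shown as letters that p53 could recognise. The pattern was searched in the 250 bases upstream of the starts that RefSeq gives on GRCm38.p6. It reads the same on both strands, so 1 search covers both, and no other motif was searched. Of the 10 genes, 8 had their promoters searched. Zmat3 had no promoter entry, and Pmaip1 was left out because sequence of its chromosome is not printed here. A half-site was found in 5 of the 8 genes searched, while Bbc3, Phlda3 and Eda2r had none in this window. It was present in 5 of 11 promoters of the 8 genes and in 7.13% of all 32851 promoters. The first base of the half-site lay 75 bases upstream of the start in Trp53, 186 in Mdm2, 185 in Ccng1, 201 in Bax and 173 in Sesn1, whose start here is an internal one. The windows run 5′ to 3′ on the strand of the gene, with the half-site in capitals and 20 bases on each side.
Trp53, chr11:69580264-69580313, plus strand: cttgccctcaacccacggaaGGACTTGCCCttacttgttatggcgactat
Mdm2, chr10:117710915-117710964, minus strand: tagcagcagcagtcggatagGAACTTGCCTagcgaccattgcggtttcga
Ccng1, chr11:40755442-40755491, minus strand: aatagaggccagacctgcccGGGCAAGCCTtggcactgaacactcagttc
Bax, chr7:45467070-45467119, minus strand: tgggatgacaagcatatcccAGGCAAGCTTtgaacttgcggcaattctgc
Sesn1, chr10:41887246-41887295, plus strand: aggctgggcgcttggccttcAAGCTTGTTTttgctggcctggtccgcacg
Each of these windows held a single half-site and none held a pair within 13 bases. A pair was found in 0.0639% of all promoters. One of those belongs to Cdkn1a, the cell-cycle inhibitor p21 and the best-known p53 target, which is shown for comparison.
Cdkn1a, chr17:29090886-29090957, plus strand: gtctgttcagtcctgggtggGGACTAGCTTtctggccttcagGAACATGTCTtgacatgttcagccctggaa
A match to the pattern does not show that p53 binds there, and sites farther from the start or within introns were not searched. Only exact matches are in capitals. Near matches, such as the lower-case bases right after the second half-site of Cdkn1a, were not marked, so the capitals need not be the bases that p53 uses.

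Expression was given as FPKM, the fragments of a transcript scaled to its length and to the fragments mapped in that library, summed over the transcript models of a gene. Widths of the deposited confidence intervals corresponded to 3.96e+07 to 4.96e+07 fragments per library. Libraries correlated across genes with r between 0.982 and 0.992 on the log2 scale, and none stood apart. Ctnnb1, the β-catenin gene, rose from 110 ± 9.79 to 141 ± 7.73 FPKM (SD, n = 3; limma adjusted p = 0.0158), a sum of the RNA of the added gene and of the cells' own. Axin2, which β-catenin switches on, rose from 0.131 ± 0.0385 to 2.95 ± 0.296 FPKM (limma adjusted p = 3.8e-05). Stromal genes were abundant, and the 7 of them listed summed to 7257 to 7727 FPKM in vector and 8385 to 8640 FPKM in S37A, without overlap. Of these 7, Des and Acta2, genes of muscle-like stroma, rose and the other 5 did not pass. Des rose from 79.8 ± 4.39 to 99.2 ± 0.233 FPKM (limma adjusted p = 0.00668) and was called in all 15 alternatives. Acta2 rose from 3170 ± 73.3 to 3562 ± 121 FPKM (limma adjusted p = 0.0267) and was called in 7 of 14 alternatives. The Acta2 call was lost with quantile normalization (0.276), without a filter (0.195) and with same-numbered libraries as a block (0.0546). It was also lost without vector replicate 3 or any 1 S37A library (0.0711 to 0.0802). The 6 epithelial markers summed to 10.4 to 20.4 FPKM and the 4 endothelial markers to 24.3 to 27.7 FPKM over all libraries, and the 4 lymphocyte markers to at most 0.114 FPKM. The 7 macrophage markers summed to 18.4 to 23.0 FPKM in vector and 46.7 to 53.1 FPKM in S37A. Of these 7 genes, 5 were tested and 4 rose, and none was at 0 in all libraries, though Ptprc stayed at or under 0.153 FPKM in every library. The part of the stromal and macrophage RNA in the results below was not tested. In bulk RNA, fewer cells of a type and less RNA per cell cannot be told apart.

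Of the 10 genes, 2 fell in S37A (Trp53 and Mdm2), 0 rose and 8 did not pass the test. All 10 genes were above the filter of a mean of 0.5 FPKM and were read from the limma fit over 12022 genes. At an adjusted p under 0.05, 19.9% of all genes tested were lower in S37A, 6.06% were higher and 26.0% differed in either direction. The share of the 10 genes that fell is thus close to that of all genes. Groups did not overlap for 4 of the 10, against 47.8% of all genes. The median log2 difference of the 10 genes was -0.04 and that of all genes tested was -0.07. Differences are S37A minus vector on the scale of log2(FPKM + 1), and the background of small falls means that values near -0.07 are not set apart from the typical gene.

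**Figure D1:**
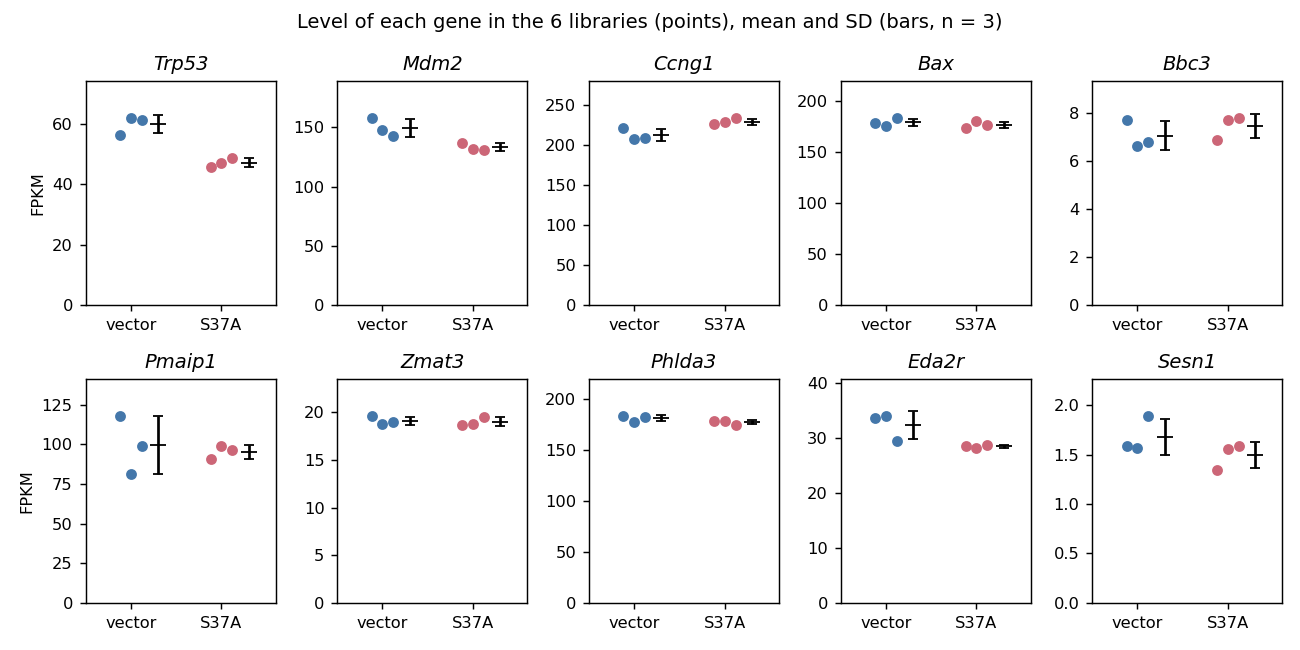
FPKM of each of the 10 genes (vertical axes, each starting at 0) in the vector libraries (blue points) and S37A libraries (red points), in the order of replicates 1 to 3, with the mean and SD of n = 3 in black. Points of the 2 groups are separate for Trp53, Mdm2, Ccng1 and Eda2r and overlap for the other 6 genes.

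Trp53 had the largest difference of the 10. Like the other 9 it is protein-coding, and it occupies 69580359 to 69591873 of chromosome 11 on the plus strand (mm10). Vector replicates 1 to 3 had 56.4, 61.8 and 61.4 FPKM, and S37A replicates 1 to 3 had 45.8, 46.9 and 48.8 FPKM. Every S37A library was thus below every vector library. The mean fell from 59.9 ± 3.04 to 47.2 ± 1.53 FPKM, to 78.7% of the vector level. The log2 difference was -0.34 (SE 0.05, 95% interval -0.45 to -0.23, limma adjusted p = 0.0063). Over the libraries alone, the exact permutation p (two-sided) was 0.1, which no 3 against 3 design can go below. Trp53 was called in all 15 alternative settings, with adjusted p from 0.00523 to 0.0328 and differences from -0.38 to -0.26.

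Both transcript models of Trp53 were listed in every library. The shorter, of 1772 bases, encodes the regular protein of 390 codons, and the longer, of 1868 bases, carries 96 more bases from an alternative splice near the 3′ end and ends after 381 codons. The start of the extra stretch is shown because it is what separates the models. It runs on the plus strand of chr11:69591254-69591308 to its stop codon, in capitals.
Extra stretch of the longer Trp53 model: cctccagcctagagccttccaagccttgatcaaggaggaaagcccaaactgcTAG
The 1772-base model stood at 45.8, 50.3 and 49.6 FPKM in vector and at 40.2, 37.1 and 38.9 FPKM in S37A, with no overlap. The 1868-base model stood at 10.6, 11.5 and 11.8 FPKM in vector and at 5.52, 9.77 and 9.88 FPKM in S37A, also with no overlap. Its share of the gene was 18.9% ± 0.312 in vector and 17.7% ± 4.89 in S37A (SD, n = 3). The S37A share was spread by replicate 1, at 12.1%, against 20.8% and 20.2% in the other S37A libraries. Most of the lower FPKM was therefore in the regular model. The split between models of a gene is an estimate from shared reads and was not tested.

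Mdm2, on chromosome 10 from 117688875 to 117710758 (minus strand), was lower in S37A by a smaller amount. It stood at 158, 148 and 143 FPKM in vector and at 137, 132 and 131 FPKM in S37A, so that the groups lay side by side without overlap. The mean fell from 149 ± 7.51 to 133 ± 3.36 FPKM, or to 89.2% of the vector level (log2 difference -0.16, SE 0.04, 95% interval -0.26 to -0.06, limma adjusted p = 0.0341; exact two-sided permutation p = 0.1). The call was a weak one. It was lost with median-ratio scaling, where the difference was -0.08 (limma adjusted p = 0.263), with quantile normalization (0.129), without the 100 most abundant genes (0.105) and without a filter (0.0587) and with only the transcript model of highest mean FPKM tested (0.0670). It was also lost without any 1 library except vector replicate 3, with adjusted p of 0.0538 and 0.0727 without vector replicates 1 and 2, and 0.0504, 0.0993 and 0.113 without S37A replicates 1, 2 and 3. Both Mdm2 models start at the same place. The 3014-base model made up 19.6% ± 4.40 of the gene in vector and 20.6% ± 2.47 in S37A, which overlap, and the 3099-base model the rest.

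Among the genes that act on growth and stress, Ccng1 was the only 1 of the 10 with non-overlapping groups and a higher level in S37A. Ccng1 encodes cyclin G1, which recruits a phosphatase to Mdm2, and was the most abundant of the 10 in both groups. It stood at 221, 208 and 209 FPKM in vector and 226, 229 and 233 FPKM in S37A. The lowest S37A library lay just above the highest vector library. The means were 213 ± 7.74 and 229 ± 3.75 FPKM, with a log2 difference of 0.11 (SE 0.04, 95% interval 0.02 to 0.19) that did not pass the test (limma adjusted p = 0.0624). It passed with median-ratio scaling (log2 difference 0.19, limma adjusted p = 0.0172), without the 100 most abundant genes (0.0385) and without vector replicate 1 (0.0270), the vector library with the highest value.

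Zmat3, which encodes a zinc-finger protein that binds RNA, hardly varied between libraries. It stood at 19.6, 18.8 and 19.0 FPKM in vector and at 18.7, 18.8 and 19.5 FPKM in S37A, and the groups overlapped. Its log2 difference was -0.01 (95% interval -0.09 to 0.08, limma adjusted p = 0.874). Phlda3, whose product competes with AKT for membrane lipids, stood at 183, 178 and 182 FPKM in vector and at 178, 179 and 175 FPKM in S37A. Those groups overlapped as well, with a log2 difference of -0.03 (95% interval -0.10 to 0.04, limma adjusted p = 0.490). For both genes the interval with FPKM as deposited stays within 0.10 on the log2 scale in either direction. It does not cover the choice of scaling: with median-ratio scaling Phlda3 stood at 0.0522, above its interval.

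Sesn1, which encodes sestrin 1, an inhibitor of TORC1, had the lowest level of the 10. It stood at 1.58, 1.57 and 1.89 FPKM in vector and at 1.35, 1.55 and 1.59 FPKM in S37A, with overlap. The level corresponded to about 176 to 238 fragments per library, far fewer than for the other 9 genes. The log2 difference was -0.10 (95% interval -0.26 to 0.06, limma adjusted p = 0.293). Its 2 models start at different places. The 2612-base model, which starts at the internal promoter whose half-site is shown above, stood at 1.08, 0.992 and 1.26 FPKM in vector and at 0.759, 0.875 and 0.636 FPKM in S37A. All S37A values of this model lay below all vector values, while the 3182-base model, at 0.502 to 0.634 FPKM in vector and 0.589 to 0.953 FPKM in S37A, overlapped. Tested alone, as the model of highest mean FPKM, the 2612-base model did not pass (log2 difference -0.26, limma adjusted p = 0.062). The shorter model made up 66.1% ± 2.50 of the gene in vector and 50.9% ± 9.40 in S37A. This split rests on the few fragments of the gene, is an estimate and was not tested.

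The pro-apoptotic members Bax, Bbc3 and Pmaip1 did not pass the test, and the groups overlapped for each. Bax, the protein that forms pores in the outer mitochondrial membrane, stood at 178, 176 and 183 FPKM in vector and at 173, 179.6 and 176 FPKM in S37A. Its log2 difference was -0.02 (95% interval -0.09 to 0.06, limma adjusted p = 0.675). Bbc3, an activator of Bax, stood at 7.75, 6.62 and 6.83 FPKM in vector and at 6.89, 7.73 and 7.79 FPKM in S37A. The highest vector library and the 2 highest S37A libraries were alike for Bbc3, and its log2 difference was 0.07 (95% interval -0.09 to 0.23, limma adjusted p = 0.445).

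Pmaip1, which encodes an inhibitor of the survival protein MCL1, varied most among the vector libraries. It stood at 118, 81.5 and 99.1 FPKM in vector and at 90.5, 99.3 and 96.3 FPKM in S37A, so that all S37A values lay within the range of the vector values. Its log2 difference was -0.05 with a wide 95% interval of -0.32 to 0.23 (limma adjusted p = 0.790). A change of Pmaip1 of up to about that size was not detectable between these libraries, while the intervals of Bax, Zmat3 and Phlda3 were far narrower.

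Eda2r, a receptor of the tumour necrosis factor family that binds ectodysplasin A2, lies on the X chromosome from 97333840 to 97377216 (minus strand). It stood at 33.7, 34.0 and 29.5 FPKM in vector and at 28.6, 28.3 and 28.7 FPKM in S37A. The groups did not overlap in summed FPKM, though vector replicate 3 came close to the S37A libraries. This separation depends on the split between models described below. The means were 32.4 ± 2.50 and 28.5 ± 0.232 FPKM, with a log2 difference of -0.18 (SE 0.06, 95% interval -0.31 to -0.05) that did not pass (limma adjusted p = 0.0539). Eda2r passed without vector replicate 3 (limma adjusted p = 0.0210), with a filter at 5 FPKM (0.0493) and when only its most abundant model, the 2162-base one, was tested (log2 difference -0.39, limma adjusted p = 0.0310).

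The 3 models of Eda2r did not keep the same shares. The 2162-base model, which ends short of the others, stood at 23.6, 25.8 and 20.3 FPKM in vector and at 18.0, 16.9 and 17.3 FPKM in S37A, with no overlap. The 4744-base model stood at 6.64, 5.38 and 7.28 FPKM in vector and at 8.26, 11.3 and 11.4 FPKM in S37A, also without overlap but in the opposite direction. The 4789-base model was listed at 3.43, 2.81 and 1.94 FPKM in vector, at 2.37 FPKM in S37A replicate 1 and at 0 in S37A replicates 2 and 3. Both longer models span the same positions of the chromosome, so their split is the least certain. The summed FPKM depends on the split as well, since the same fragments give a lower FPKM on a longer model. Relative to depth, vector replicate 3 (about 3946 of 4.50e+07 inferred fragments) lay below every S37A library. S37A replicates 1 to 3 had 4081 of 4.56e+07, 3575 of 3.96e+07 and 3902 of 4.27e+07. By inferred fragments the groups thus overlapped, while vector replicates 1 and 2 lay above every S37A library. Eda, the gene of its ligand, had 0.582 ± 0.0417 FPKM in vector against 0.552 ± 0.0658 in S37A (limma adjusted p = 0.734).

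**Figure D2:**
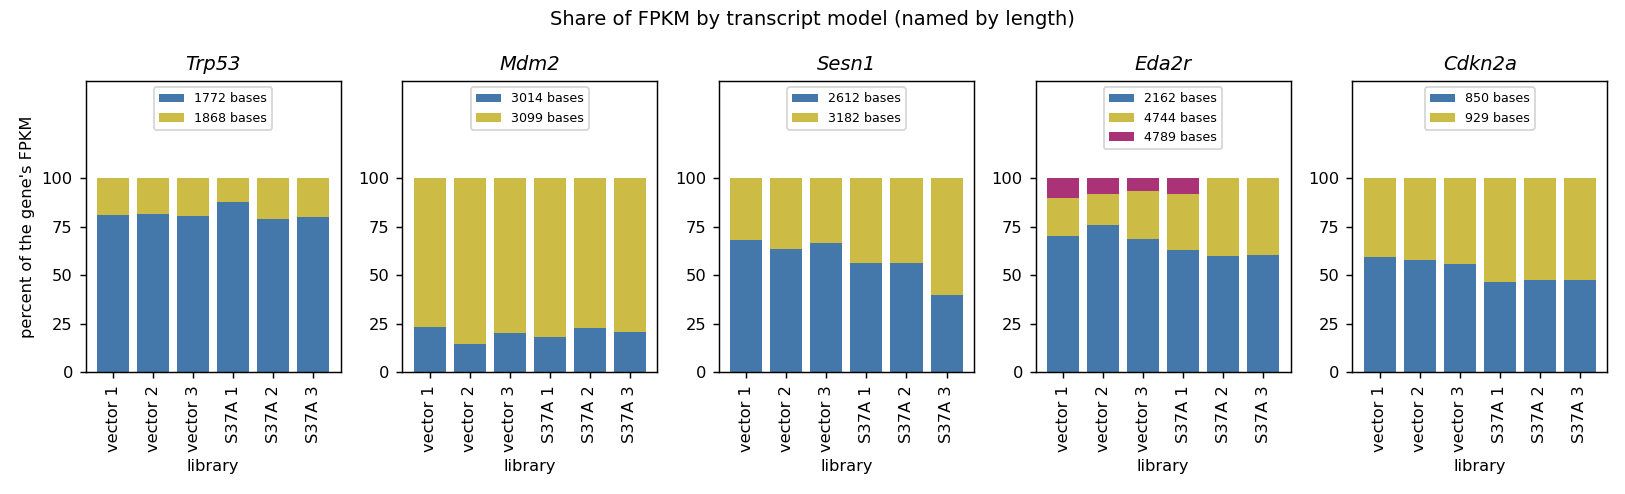
Percent of the FPKM of Trp53, Mdm2, Sesn1, Eda2r and Cdkn2a given to each transcript model (stacked bars, models named by length in bases) in each of the 6 libraries. Shares of Mdm2 are alike in the groups, while the shorter model of Sesn1 and of Eda2r holds less of the gene in every S37A library, and in Cdkn2a the longer model holds more.

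Levels of the 10 genes, which FPKM makes comparable per length, spanned a wide range, and their order was the same in both groups. From highest to lowest it was Ccng1, Phlda3, Bax, Mdm2, Pmaip1, Trp53, Eda2r, Zmat3, Bbc3 and Sesn1. Phlda3 and Bax could not be ordered, as their ranges overlapped in vector (178 to 183 and 176 to 183 FPKM) and in S37A (175 to 179.0 and 173 to 179.6 FPKM). No other neighbours in the order overlapped in either group.

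The small differences depended on how the libraries were scaled. The median difference of all genes was -0.07 with FPKM as deposited, 0.003 with median-ratio scaling, -0.01 with quantile normalization and -0.04 without the 100 most abundant genes. Trp53, Mdm2, Eda2r and Sesn1 were lower, and Ccng1 and Bbc3 higher, under each of these scalings. Bax and Zmat3 changed sign under all 3 other scalings, Phlda3 under median-ratio scaling and without the 100 most abundant genes, and Pmaip1 under median-ratio scaling. None of these 4 genes passed the test under any setting.

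**Figure D3:**
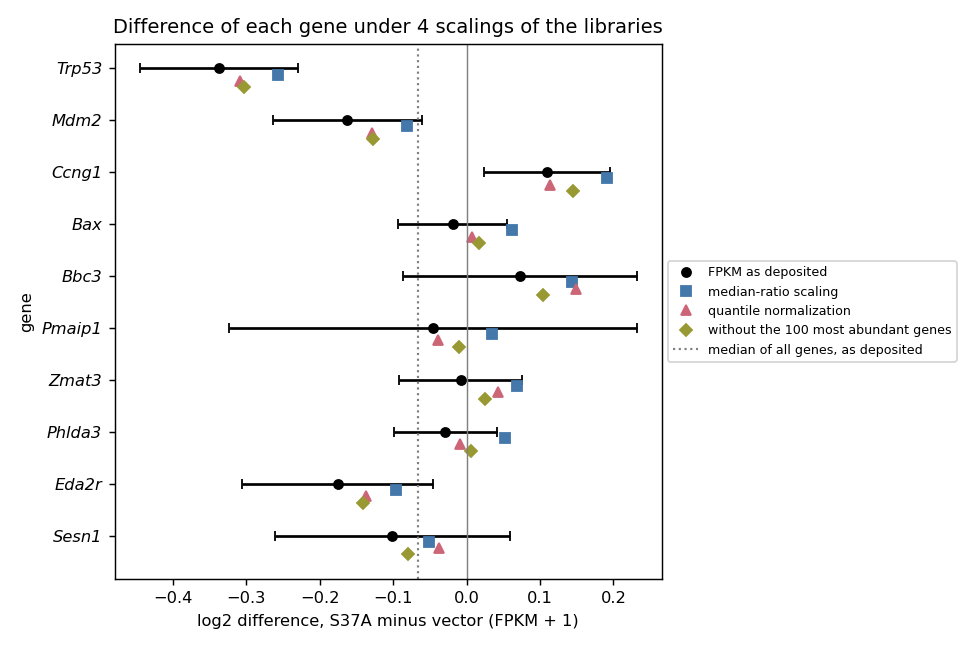
Log2 difference of each gene, S37A minus vector (horizontal axis), with FPKM as deposited (black, with the 95% interval) and under 3 other scalings (coloured marks); the dotted line is the median of all genes. The interval of Trp53 lies wholly left of the dotted line, and Bax, Zmat3, Pmaip1 and Phlda3 sit on both sides of 0.

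Genes that control p53 were mixed. Of 15 regulators, all tested, 1 rose and 4 fell, with a median log2 difference of -0.12. For this list and those below, 6.06% of all genes tested rose and 19.9% fell. With median-ratio scaling, with quantile normalization and without the 100 most abundant genes, 1339, 1094 and 900 of all genes rose. Under the same scalings 890, 957 and 1500 fell. Cdkn2a, whose locus on chromosome 4 encodes both the Mdm2 inhibitor p19Arf and the cell-cycle inhibitor p16Ink4a, stood at 95.1, 78.6 and 91.9 FPKM in vector and at 110, 110 and 107 FPKM in S37A. It rose from 88.5 ± 8.73 to 109 ± 1.67 FPKM (log2 difference 0.30, limma adjusted p = 0.0212) and was higher under every scaling. The call was lost without S37A replicate 1 (limma adjusted p = 0.0560), replicate 2 (0.0693) or replicate 3 (0.0643).

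The difference in Cdkn2a was listed in 1 of its 2 models, which were looked at after the gene's value was seen. The 929-base model, which starts at the upstream first exon of p19Arf, stood at 38.7, 33.0 and 40.6 FPKM in vector and at 58.9, 57.7 and 56.4 FPKM in S37A, far apart. The 850-base model, which starts at the first exon of p16Ink4a, stood at 56.4, 45.6 and 51.3 FPKM in vector and at 50.8, 52.5 and 50.7 FPKM in S37A, and overlapped. The longer model held 42.3% ± 1.76 of the gene in vector and 52.9% ± 0.697 in S37A. In the alternative that tested only the most abundant model of each gene, here the 850-base model, Cdkn2a did not pass (log2 difference 0.01, limma adjusted p = 0.924).

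Of the kinases that signal DNA damage to p53, Atm fell from 2.15 ± 0.241 to 1.53 ± 0.101 FPKM and Atr from 2.43 ± 0.271 to 1.79 ± 0.0773 FPKM (limma adjusted p = 0.0188 and 0.0214). Neither call held without S37A replicate 2 (0.0649 and 0.0717) or S37A replicate 3 (0.0688 and 0.0698), and that of Atr was also lost without vector replicate 3 (0.0540) and with quantile normalization (0.0576). The ubiquitin ligases Rchy1 and Rfwd2 (Cop1), which can act on p53, fell by 0.16 and fell by 0.13 on the log2 scale, calls that each of the other scalings ended, as did leaving out any 1 library, except vector replicate 3 for Rchy1. Mdm4, the relative of Mdm2 that blocks p53 without degrading it, had 7.08 ± 0.245 FPKM in vector against 7.34 ± 0.239 in S37A (limma adjusted p = 0.439, not called). With the 3 other scalings, in the order given above, the counts of regulators were 1 rising and 2, 1 and 2 falling, without S37A replicate 1 they were 0 rising and 3 falling, and without S37A replicate 2 or 3 they were 0 in either direction.

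Of 28 other p53 target genes, 26 were tested, of which 1 rose, 7 fell and 18 did not pass, with a median log2 difference of -0.08. The shares over all genes were 6.06% rising and 19.9% falling. Cdkn1a, with the paired half-sites shown above, stood at 394 ± 27.5 FPKM in vector and 397 ± 8.94 FPKM in S37A (log2 difference 0.01, limma adjusted p = 0.899), and its groups overlapped. Its model from the start beside those half-sites held only 10.6% ± 0.200 of the gene in vector and 11.4% ± 0.967 in S37A. Gdf15, a secreted factor made under stress, fell from 10.6 ± 0.534 to 6.96 ± 0.314 FPKM, the growth-arrest gene Gadd45a from 73.3 ± 2.85 to 56.0 ± 2.48 FPKM, and Ckap2, a spindle-associated gene, from 9.01 ± 0.747 to 6.51 ± 0.242 FPKM. These 3 were called in all 15 alternatives (limma adjusted p = 0.00231, 0.0044 and 0.00786 with FPKM as deposited).

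The others that fell were the autophagy-linked Trp53inp1, the glycolysis regulator Tigar, the kinase Plk2 and the DNA repair gene Xpc, with log2 differences of -0.21, -0.14, -0.16 and -0.21. Trp53inp1 and Tigar were lost without any 1 library, Plk2 without vector replicate 1 or 3 or S37A replicate 1 or 3, and Xpc without vector replicate 2 or S37A replicate 2 or 3. All 4 were lost with median-ratio scaling or quantile normalization. Without the 100 most abundant genes, Trp53inp1, Tigar and Plk2 were lost (limma adjusted p = 0.0976, 0.111 and 0.0600), while Xpc stayed called (0.0488). Btg2, an antiproliferative gene, went the other way, from 76.3 ± 10.1 to 98.7 ± 9.29 FPKM (limma adjusted p = 0.0397), and was called under all 4 scalings but not without vector replicate 2 or 3 (0.0762 and 0.0761) or S37A replicate 2 or 3 (0.115 and 0.123). With the other scalings 3, 3 and 3 of the 26 were higher and 3, 3 and 4 lower. Without 1 library, 0 to 1 were higher and 3 to 4 lower. Ddb2 was listed at 0 in every library.

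Among 20 genes of the BCL2 family, caspases and caspase inhibitors, 17 were tested, of which 3 rose, 6 fell and 8 did not pass. Over all genes tested, 6.06% rose and 19.9% fell. The median log2 difference of the 17 was -0.06, and 0.02 with median-ratio scaling. Survival genes did not move one way. Bcl2 rose from 1.74 ± 0.0173 to 2.21 ± 0.134 FPKM and the caspase inhibitor gene Xiap from 5.00 ± 0.369 to 6.22 ± 0.237 FPKM (limma adjusted p = 0.0203 and 0.0177), while the related inhibitors Birc2 and Birc3 fell from 6.24 ± 0.212 to 5.09 ± 0.235 and from 5.06 ± 0.302 to 4.13 ± 0.106 FPKM (0.0136 and 0.0177). Bok, a relative of Bax, rose from 29.5 ± 2.26 to 34.3 ± 0.751 FPKM (limma adjusted p = 0.0303). Bid, which links death receptors to Bax, fell from 11.3 ± 0.489 to 9.05 ± 0.165 FPKM (limma adjusted p = 0.00793), the only 1 of the 9 changed genes in this list called in all 15 alternatives. The calls of Bcl2, Xiap, Birc3 and Bok were lost without S37A replicate 2 or 3, that of Birc2 without S37A replicate 2 (0.0511), that of Bcl2 also without vector replicate 2 or 3, and that of Bok also without vector replicate 1 or 2 or S37A replicate 1. Birc3 was not called with quantile normalization (limma adjusted p = 0.0666), nor with the most abundant model only were Xiap (0.173) and Birc2 (log2 difference -0.57, 0.188).

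The other falls were those of Apaf1, the scaffold that cytochrome c assembles, the death-receptor caspase Casp8 and Diablo, an antagonist of caspase inhibitors. Their log2 differences were -0.22, -0.14 and -0.16 in that order. Apaf1 fell from 10.2 ± 0.330 to 8.62 ± 0.437 FPKM and Casp8 from 25.8 ± 0.364 to 23.4 ± 0.239 FPKM (limma adjusted p = 0.0180 and 0.0232), and these 3 calls were lost with median-ratio scaling, with quantile normalization (0.0712, 0.108 and 0.129 for Apaf1, Casp8 and Diablo) and without S37A replicate 2 or 3. With the most abundant model only, Apaf1 turned to 0.04 on the log2 scale (limma adjusted p = 0.844) and Casp8 stood at -0.01 (0.902). The call of Casp8 was also lost without vector replicate 3 (0.0717), and that of Diablo without vector replicate 2 (0.118) or 3 (0.120) or S37A replicate 1 (0.0855). Without the 100 most abundant genes Casp8 and Diablo were not called (0.0648 and 0.0956). With the other scalings 3, 3 and 3 were higher and 3, 2 and 4 lower. Without S37A replicate 2 there were 0 and 1, without S37A replicate 3 there were 0 and 2, and without vector replicates 1, 2 and 3 or S37A replicate 1 there were 2, 1, 2 and 2 higher and 6, 6, 4 and 5 lower.

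Of 13 relatives of the 10 genes, 8 were tested, of which 2 fell and 0 rose, with a median log2 difference of -0.05. Among all genes tested, 19.9% fell and 6.06% rose. Ccng2, the cousin of Ccng1, fell from 13.6 ± 1.08 to 11.5 ± 0.318 FPKM and Sesn3 from 5.97 ± 0.492 to 5.01 ± 0.245 FPKM (limma adjusted p = 0.0290 and 0.0426). Both calls were lost under each of the other scalings and without vector replicate 2 or any 1 S37A library, and that of Sesn3 also without vector replicates 1 and 3. Sesn2, which is also in the list of other targets, had 24.2 ± 0.446 FPKM in vector against 22.5 ± 1.15 in S37A, and Zmat2 had 17.4 ± 0.298 against 16.5 ± 0.856 (limma adjusted p = 0.119 and 0.230, not called). Without a filter, which tested more genes, the calls of Rchy1, Rfwd2, Trp53inp1, Tigar, Plk2, Btg2, Bok, Diablo, Ccng2 and Sesn3 were also lost, with limma adjusted p from 0.0533 to 0.0823. The p53 family genes Trp63 and Trp73 were below the filter, with highest values of 0.123 and 0.0131 FPKM in any library.

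**Figure D4:**
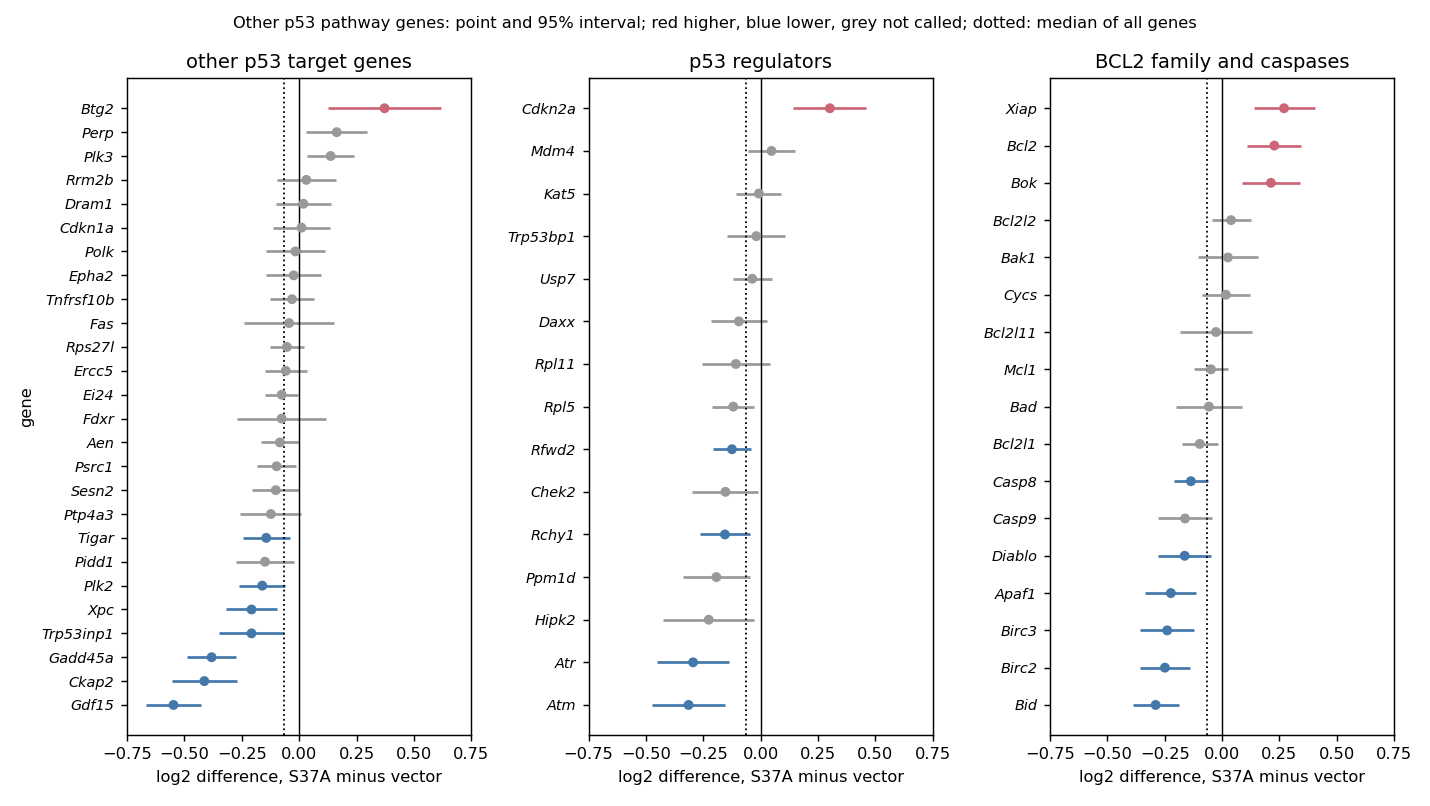
Log2 difference, S37A minus vector (horizontal axes), with its 95% interval for each tested gene of 3 lists: other p53 targets, p53 regulators, and the BCL2 family with some caspases and caspase inhibitors. Red genes rose, blue genes fell and grey genes did not pass, and Cdkn1a sits at 0.01 while Gdf15 has the largest fall at -0.55.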

How the data were processed

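The authors deposited 1 table per library. The submitters' processing notes name bcl2fastq 1.8.3, TopHat, Cufflinks and the mm10 build. Per the labels' protocols the SMART-Seq v4 kit was used, which does not mark strand. Per the file headers, the deposited values are FPKM of 34535 transcript models with interval bounds, a coverage signal and lengths. The coverage signal entered no test. FPKM was summed by symbol after leaving out 5 genes with a failed status in a library. A mean of 0.5 FPKM or more was required, which 12022 genes met, and log2(FPKM + 1) was fitted with limma (version 3.58.1, under R 4.3.3), using a mean-variance trend and Benjamini-Hochberg adjustment. This scale understates changes of low genes. Depth was inferred from interval widths and covers counting error only. Positions are from GENCODE M21, in which only Bax, among the 10 genes, shares exon bases with another gene.

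On simulated data for this comparison with 12022 genes, 200 genes were given log2 shifts of 0.25, 0.5 or 1, and 14.5%, 79.5% and 97% of them were recovered, and 0 calls were made with no change. The 10 genes and the lists were chosen with earlier results of these data known. Named are the 10 genes, Ctnnb1 and Axin2 as checks of the labels, and the called genes of each of 4 lists (or, with under 4 called, the 4 with the smallest p). Others, such as Cdkn1a, Mdm4, Eda and the cell type markers, and the models of Cdkn2a and Cdkn1a, were named after their values were seen. The list of the BCL2 family and caspases leaves out some genes that are not reported here.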

Additional observations from a re-analysis of the deposited data

How the results depend on the processing

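Over 15 alternatives, the 10 genes gave 149 results, Sesn1 being below a filter of 5 FPKM: 121 kept direction and side of the threshold, 10 lost a call (all Mdm2), 6 gained one (3 each for Ccng1 and Eda2r) and 12 changed sign. On the log2 scale the sign changes were Bax at 0.0620 with median-ratio scaling, 0.00734 with quantile normalization and 0.0162 without the 100 most abundant genes; Zmat3 at 0.0691, 0.0424 and 0.0254 under the same 3 settings; Phlda3 at 0.0522 with median-ratio scaling and 0.00636 without the 100 most abundant genes; and Pmaip1 at 0.0349 with median-ratio scaling. Leaving out 1 library gave -0.180 to 0.0833 for Pmaip1, -0.0270 to 0.00883 for Zmat3, 0.0329 to 0.132 for Bbc3, -0.132 to -0.0457 for Sesn1, -0.0327 to -0.00324 for Bax and -0.0427 to -0.0192 for Phlda3, none of which was called. Of the 10 genes, 1 was higher with median-ratio scaling and without the 100 most abundant genes, and 1 was lower with no filter, with median-ratio scaling, with quantile normalization and without the 100 most abundant genes. Leaving out 1 library gave 0 to 1 higher and 1 to 3 lower.

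Over all genes, 729 were higher and 2393 lower. These became 1339 and 890 with median-ratio scaling and 1094 and 957 with quantile normalization; 1500 were lower without the 100 most abundant genes and 1491 with only the most abundant transcript model of each gene. Leaving out 1 library gave 276 to 744 higher and 547 to 2406 lower. The replicate block gave 442 higher and 1193 lower. Same-numbered libraries deviated with correlations of -0.12, 0.02 and 0.10, and not every library correlated best with its own number. Whether same-numbered libraries share an origin is not given, and correlations this weak cannot decide it. With the block Trp53 and Mdm2 stayed called (limma adjusted p = 0.0241 and 0.0404). Many calls in the lists were lost with it. There, 1 regulator rose and 0 fell, and 0 other p53 targets rose and 3 fell. In the list of the BCL2 family and caspases 2 rose and 3 fell, and of the relatives 0 rose and 1 fell. The causes were not tested. Ctnnb1 lost its call without S37A replicate 2 (limma adjusted p = 0.0567) or 3 (0.0618). Genes that changed by 0.25 on the log2 scale were mostly missed in the simulated data. There only 200 of 12022 genes changed, while 3122 were called in the real data. With fewer calls the adjustment is stricter, so this recovery does not carry over to the 8 genes not called. In the real fit a smaller difference could pass, as for Mdm2 at -0.16. The intervals of the 8 genes with FPKM as deposited show the spread between libraries at that scaling only. These intervals ran from narrow for Phlda3 (-0.10 to 0.04) to wide for Pmaip1 (-0.32 to 0.23). They do not cover the choice of scaling. With median-ratio scaling Phlda3 (0.0522) and Bax (0.0620) lay above the upper ends of their intervals (0.0413 and 0.0556).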
